A study of Mus musculus with 6 samples.

Results

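The lysosomal hydrolase and membrane genes examined here are 47 genes named by symbol, of which 46 had a probe set of their own on the array and 45 were bright enough to test, out of 10302 genes tested in all. They comprise 11 cathepsins and related proteases, 20 other hydrolases and their cofactors, 9 membrane proteins, 4 subunits of the proton pump and 3 transcriptional regulators. Where a gene had several probe sets naming no other gene, the brightest on average stood for it. Cd63 was not analysed here. Ctsk, the cathepsin of osteoclasts, lay between 2.40 and 2.47 on the log2 scale on all 6 arrays, under the detection minimum of 4, and was not tested.

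The samples were 3 arrays of Gata3-/- cells and 3 arrays of Gata3+/- cells, both derived from mouse embryonic stem cells. Gata3 encodes a zinc finger transcription factor required for early T-cell development, and every group carried at least 1 disrupted copy of it. Cells of both genotypes were differentiated on OP9 and OP9-DL1, mouse bone marrow stromal lines of which the second displays a Notch ligand, with IL-7 and Flt3L in the medium, and were sorted as progenitors of the T lineage. The sort markers, the disrupted part of the gene, and the number of stem cell clones or cultures were not stated in the labels, so the p-values cover the scatter among these arrays and no more.

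Of 12 T-lineage marker genes on the array, 11, among them Cd3e, Bcl11b, Cd4 and Rag1, never reached the detection minimum, whereas all 14 macrophage and monocyte markers passed the filter. The labelled cell type was therefore not borne out by these markers. It is not refuted either, since whether progenitors at the sorted stage express these genes was not tested. The cells are named below by genotype only. The probe set of Gata3 itself averaged 5.93 ± 0.48 in Gata3-/- arrays, against 5.88 ± 0.50 in Gata3+/- arrays (log2 intensity, SD, n = 3 each), and does not check the genotypes, since its place relative to the disruption is unknown. The number of arrays limits the precision of every value.

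Lysosomes are acidic organelles in which proteases, glycosidases, lipases and other hydrolases break down material delivered by endocytosis, phagocytosis and autophagy. Their membranes are lined with heavily glycosylated proteins, and a V-type proton pump keeps the lumen acid. The content of lysosomes is especially high in macrophages. Transcription factors of the MiT family (TFEB, TFE3, TFEC and MITF) bind an E-box, the letters CACGTG, that lies in the promoters of many lysosomal genes. A longer form, with GT before and AC after these letters, is known as the CLEAR element.

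To show this element in the genes measured here, the RefSeq promoter windows of build GRCm38.p6 were searched, each holding 250 bases before a gene's start and 50 from it, 300 in all. Windows were given for 41 of the 47 genes. The letters CACGTG, which read the same on both strands, were present for 13 of these 41 genes (31.7%), against 8.09% of the 27025 genes with a window. The CLEAR element, which contains the E-box and is likewise its own reverse complement, occurred in 1 of the 41 (Cln3) and in 0.37% of all genes. Stretches from 8 of the 13 are shown, picked by hand so that proteases, glycosidases, membrane proteins and the pump each appear, with CACGTG in capitals, written 5′ to 3′ on the gene's strand. Lamp1 carried 4 copies within 60 bases (chr8:13159096-13159155, plus strand), Cln3 carried 2 (chr7:126583346-126583388, minus strand) and Mcoln1 carried 2 (chr8:3500444-3500485, plus strand). Stretches with 1 copy are shown for Ctsd, whose other copy lies farther from the start (chr7:142387908-142387937, minus strand), Glb1 (chr9:114401018-114401047, plus strand), Naglu (chr11:101070009-101070038, plus strand), Lgmn (chr12:102439124-102439153, minus strand) and Atp6v1a (chr16:44139373-44139402, minus strand).
Lamp1: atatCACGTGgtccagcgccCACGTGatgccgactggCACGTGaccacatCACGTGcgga
Cln3: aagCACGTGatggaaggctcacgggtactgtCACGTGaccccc
Mcoln1: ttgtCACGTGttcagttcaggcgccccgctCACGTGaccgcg
Ctsd: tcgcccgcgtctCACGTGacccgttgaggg
Glb1: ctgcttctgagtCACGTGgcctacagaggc
Naglu: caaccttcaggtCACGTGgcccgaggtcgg
Lgmn: tggaatgtctgtCACGTGgtccattttata
Atp6v1a: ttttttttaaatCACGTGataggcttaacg

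Of the genes that passed the test described next, 3 had a promoter window, and none of these windows holds CACGTG. The 120 bases before the start are shown for them, so that they can be set beside the stretches above: Naaa (chr5:92278182-92278301, minus strand), Scarb2 (chr5:92505658-92505777, minus strand) and Gm2a (chr11:55097865-55097984, plus strand). The absence of these letters says nothing about binding elsewhere.
Naaa: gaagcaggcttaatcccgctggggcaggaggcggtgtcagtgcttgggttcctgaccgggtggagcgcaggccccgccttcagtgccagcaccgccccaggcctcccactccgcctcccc
Scarb2: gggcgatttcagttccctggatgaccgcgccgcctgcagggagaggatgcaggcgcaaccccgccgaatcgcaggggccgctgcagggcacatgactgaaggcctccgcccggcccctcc
Gm2a: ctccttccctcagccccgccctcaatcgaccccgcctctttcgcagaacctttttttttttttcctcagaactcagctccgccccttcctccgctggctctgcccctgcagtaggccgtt

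The comparison asks how lysosomal gene expression differed between cells without intact Gata3 and cells with 1 intact copy. Of the 45 tested genes 3 fell in Gata3-/- arrays, the lipid amidases Naaa and Asah1 and the membrane receptor Scarb2, and 1 rose, the lipid-binding cofactor Gm2a. That is 8.89% of the 45 genes, against 5.27% of all 10302 genes called at an adjusted p under 0.05 (limma, Benjamini-Hochberg over all probe sets). The lower calls made up 6.67% of the lysosomal genes, against 2.41% of all genes, and 2.86% of all genes were called higher. The other 41 genes did not pass. All levels are log2 intensities and all differences are Gata3-/- minus Gata3+/- on that scale, where a difference of 1 is a doubling.

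As a group the lysosomal genes lay slightly lower in Gata3-/- arrays: 30 of 45 differences were negative (66.7%), against 53.3% of all genes, and their median was -0.13, against -0.02 over all genes. In 14 genes (31.1%) every Gata3-/- array lay below every Gata3+/- array, against 16.7% of all genes. In 3 (Gaa, Gm2a and Cd68), every Gata3-/- array lay above, against a background of 16.9%. The classes differed in these counts. Negative differences were seen in 10 of 10 cathepsins, 13 of 20 other hydrolases and cofactors, 5 of 8 membrane proteins, 0 of 4 pump subunits and 2 of 3 regulators. The median of the 45 was -0.06 without Gata3-/- replicate 2 and -0.07 without Gata3+/- replicate 3. Within genotypes the median deviation of the 45 genes had an SD of 0.12 over arrays, close in size to the median difference of -0.13. Whether the group differs between genotypes was not tested. These are descriptions of a chosen list, and genes of a class are not replicates.

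**Figure D1:**
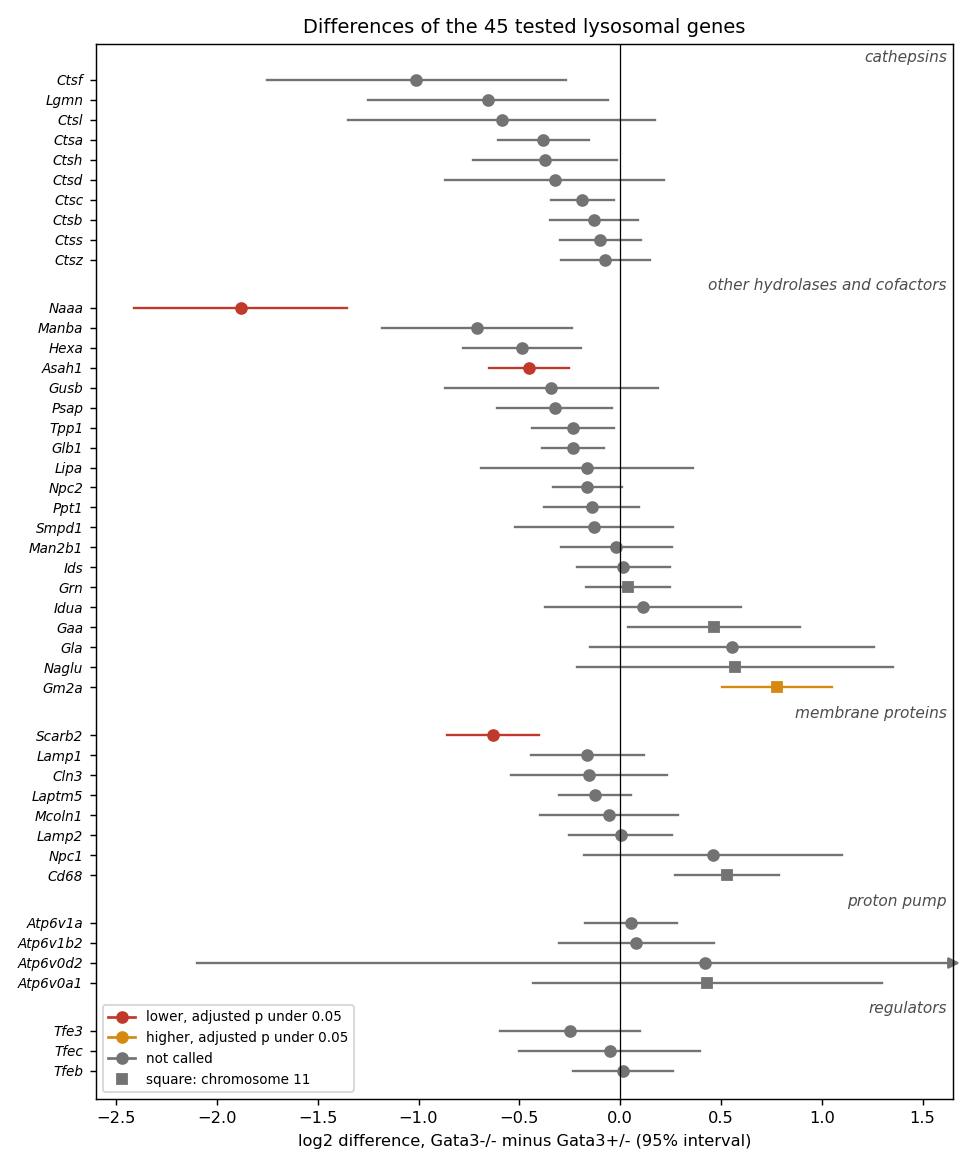
Log2 difference of each tested lysosomal gene (points) with its 95% interval (lines), Gata3-/- minus Gata3+/-, 3 arrays per genotype, grouped by class; squares mark genes on chromosome 11. All 10 cathepsins lie left of 0, Naaa lies farthest left at -1.88, the 4 pump subunits lie right of 0, and the interval of Atp6v0d2 runs past the right edge, to 2.94.

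Among lipid hydrolases, Naaa, which encodes N-acylethanolamine acid amidase, showed the largest difference of any lysosomal gene. Its level was 9.42, 8.85 and 9.12 in Gata3-/- arrays, against 11.09, 11.29 and 10.66 in Gata3+/- arrays. The genotypes were separated by more than 1 unit, and Naaa fell 3.69-fold (difference -1.88, SE 0.21, adjusted p = 0.0283). A second tested probe set of the gene differed by -1.63 (adjusted p = 0.0349).

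Asah1, the acid ceramidase that is closely related to Naaa, stood at 12.22, 12.13 and 12.15 in Gata3-/- arrays, against 12.51, 12.71 and 12.63 in Gata3+/- arrays. The arrays of the genotypes did not overlap, and Asah1 fell 1.37-fold (difference -0.45, SE 0.08, adjusted p = 0.0445). The other lipid hydrolases did not pass. Smpd1, acid sphingomyelinase, differed by -0.13 with a 95% interval from -0.52 to 0.26. Lipa, lysosomal acid lipase, differed by -0.16 with an interval from -0.69 to 0.36.

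Scarb2 (LIMP-2) is a membrane protein that carries glucocerebrosidase to the lysosome. Its level was 10.56, 10.38 and 10.48 in Gata3-/- arrays, against 10.98, 11.15 and 11.19 in Gata3+/- arrays. Again no array crossed over, and Scarb2 fell 1.55-fold (difference -0.63, SE 0.09, adjusted p = 0.0349). Its second probe set differed by -0.69 (adjusted p = 0.0312).

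Naaa and Scarb2 lie close together on chromosome 5. In RefSeq order 5 protein-coding genes stand between them, of which 3 were tested and none passed with limma. Sdad1 had a difference of -0.42 (adjusted p = 0.255), Cxcl10 of 0.33 (adjusted p = 0.246) and Nup54 of -0.01 (adjusted p = 0.974), all at an unadjusted p above 0.05. The 5 tested neighbours on either side did not pass either: differences on the Naaa side lay between -0.21 and 2.56, the last for Cxcl2, and those on the Scarb2 side between -0.40 and 0.21. Cxcl2 (unadjusted p = 0.0466) and, on the Scarb2 side, Septin11 (-0.40, unadjusted p = 0.0279) lay under 0.05 in limma. So did 25.8% of all genes. The median over the 675 tested genes of the chromosome was -0.06.

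Gm2a, the activator protein that presents ganglioside GM2 to hexosaminidase A, was the gene that rose. Its level was 13.63, 13.63 and 13.54 in Gata3-/- arrays, against 12.73, 12.71 and 13.04 in Gata3+/- arrays. All 3 Gata3-/- arrays lay above, and Gm2a rose 1.71-fold (difference 0.78, SE 0.11, adjusted p = 0.0349). A second probe set differed by 0.85 (adjusted p = 0.0283). Gm2a lies on chromosome 11, where 88.3% of the tested genes had positive differences. Hexa, the alpha subunit of the enzyme that Gm2a serves, lies on chromosome 9 and had a difference of opposite sign that did not pass. It stood at 12.96, 12.67 and 13.01 in Gata3-/- arrays, against 13.29, 13.33 and 13.48 in Gata3+/- arrays (difference -0.49, SE 0.12, adjusted p = 0.0794).

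**Figure D2:**
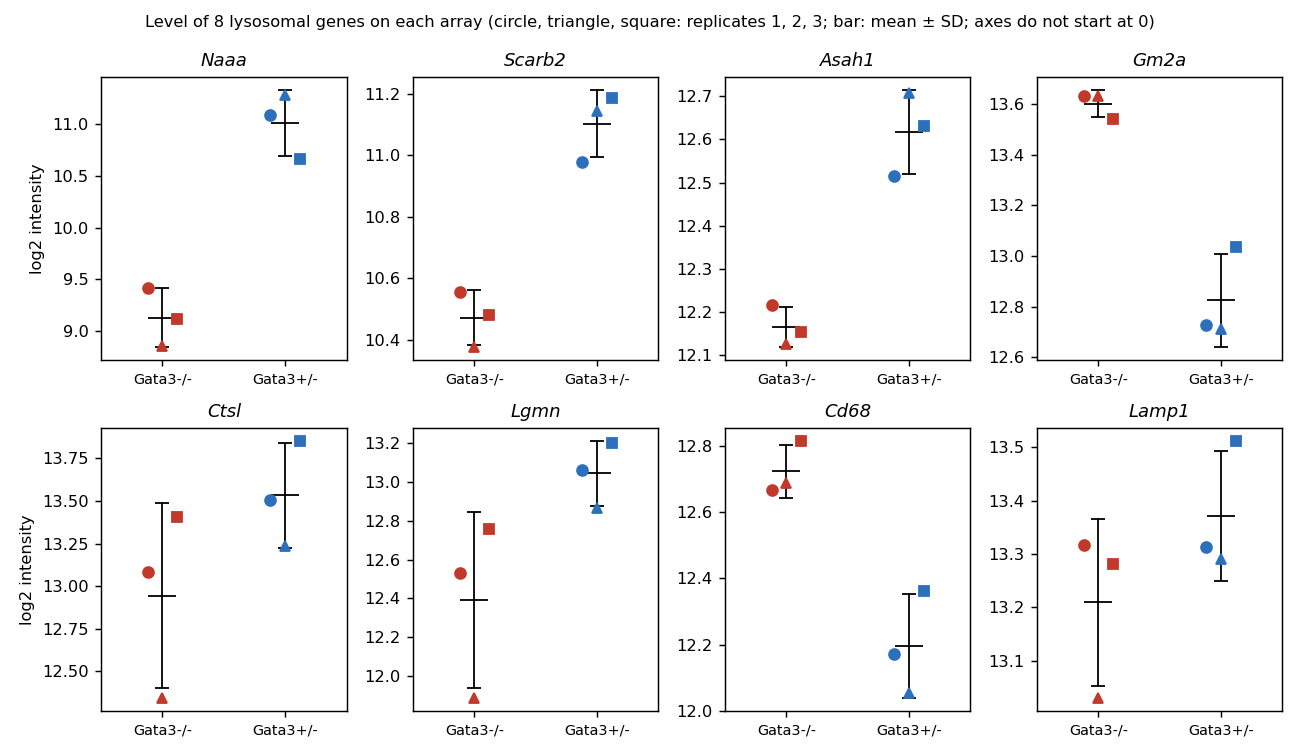
Log2 intensity of 8 lysosomal genes on each of the 6 arrays, Gata3-/- left and Gata3+/- right; bars give mean ± SD of 3 arrays and point shapes mark the replicate number. Naaa, Scarb2 and Asah1 are lower and Gm2a and Cd68 higher on all 3 Gata3-/- arrays, while Ctsl and Lamp1 overlap and replicate 2 (triangle) is lowest of its genotype for Ctsl and Lgmn in both.

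Cathepsins are the main lysosomal proteases. None of the 10 tested passed with limma, although 5 had an unadjusted p under 0.05, against 25.8% of all genes. Their differences ran from -1.01 to -0.07 with a median of -0.35. Negative differences in 10 of 10 were also found with each array left out in turn and without both arrays numbered 2. Without Gata3-/- replicate 2 the median was -0.23, and the difference of Ctsz was only -0.002. These counts rest on the chosen probe set of each gene. When the probe sets of a gene were averaged, 9 of 10 were negative, the exception being Ctsc.

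The largest difference among them was that of Ctsf, a cysteine cathepsin. It stood at 7.47, 6.40 and 7.08 in Gata3-/- arrays, against 7.70, 8.02 and 8.25 in Gata3+/- arrays (difference -1.01, SE 0.30, adjusted p = 0.118). The arrays did not overlap, but the gap between the nearest pair was small beside the spread of the Gata3-/- arrays. Lgmn, the asparaginyl endopeptidase legumain that processes cathepsins, stood at 12.53, 11.88 and 12.76 in Gata3-/- arrays, against 13.06, 12.87 and 13.20 in Gata3+/- arrays (difference -0.65, adjusted p = 0.181). It too did not overlap, by a narrow margin. Ctsl, which processes the invariant chain in thymic epithelium, had a difference of -0.59 (95% interval, -1.35 to 0.17), and its genotypes overlapped.

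Ctsa, the protective protein that stabilises beta-galactosidase and neuraminidase, came closest to the threshold. Its level was 13.47, 13.27 and 13.48 in Gata3-/- arrays, against 13.78, 13.71 and 13.86 in Gata3+/- arrays (difference -0.38, SE 0.09, adjusted p = 0.0749). Ctsh, an aminopeptidase, had a difference of -0.37 and Ctsd, the aspartic protease, of -0.32, and the arrays of both overlapped.

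The brightest cathepsin probe sets were those of Ctsz and Ctsc. Ctsc, which activates granule serine proteases, stood at 15.15, 15.11 and 15.12 in Gata3-/- arrays, against 15.32, 15.29 and 15.32 in Gata3+/- arrays, a small and very even difference of -0.19 (SE 0.06, adjusted p = 0.149). Its other 2 tested probe sets had differences of the opposite sign, 0.18 and 0.05, so no direction is given for this gene. Ctsz, a carboxypeptidase, stood at 15.44, 15.21 and 15.41 in Gata3-/- arrays, against 15.47, 15.37 and 15.44 in Gata3+/- arrays, which overlapped (difference -0.07, 95% interval from -0.30 to 0.15). Ctss, the protease that trims the invariant chain in antigen-presenting cells, and Ctsb had differences of -0.10 and -0.13, with 95% intervals from -0.30 to 0.10 and from -0.35 to 0.09.

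Glycosidases lay on both sides of 0. Manba, beta-mannosidase, had 9.18, 8.81 and 9.39 in Gata3-/- arrays, against 9.65, 9.77 and 10.09 in Gata3+/- arrays (difference -0.71, SE 0.19, adjusted p = 0.0944). Glb1, the beta-galactosidase used as a senescence stain, had 9.49, 9.50 and 9.51 in Gata3-/- arrays, against 9.72, 9.76 and 9.73 in Gata3+/- arrays (difference -0.23, SE 0.06, adjusted p = 0.0944). Both were separated by genotype without passing. Positive differences that did not pass were those of Gaa, acid alpha-glucosidase (0.46, adjusted p = 0.184), Naglu, a heparan sulfate glucosaminidase (0.57, adjusted p = 0.347), Gla, alpha-galactosidase A (0.55, adjusted p = 0.313), and Idua, iduronidase (0.11, adjusted p = 0.784). Gusb, beta-glucuronidase, had a difference of -0.34, while Ids, iduronate sulfatase, and Man2b1, alpha-mannosidase, had differences of 0.02 and -0.02.

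The remaining soluble proteins included cofactors and enzymes of other kinds. Psap, the precursor of the saposins that present sphingolipids to hydrolases, stood at 14.17, 14.11 and 14.09 in Gata3-/- arrays, against 14.22, 14.58 and 14.54 in Gata3+/- arrays (difference -0.32, SE 0.12, adjusted p = 0.169). The genotypes were separated by a margin much smaller than the spread of the Gata3+/- arrays. Grn, the precursor of the granulins, stood at 14.31, 14.18 and 14.32 in Gata3-/- arrays, against 14.16, 14.20 and 14.33 in Gata3+/- arrays. These overlapped fully, with a difference of 0.04 and a 95% interval from -0.17 to 0.25. Tpp1, a tripeptidyl peptidase, and Ppt1, a thioesterase, both mutated in neuronal ceroid lipofuscinosis, did not pass either: -0.23 for Tpp1 (adjusted p = 0.168) and -0.14 for Ppt1 (adjusted p = 0.438). The second tested probe set of Tpp1 differed by -0.59 (SE 0.13, adjusted p = 0.0640) and that of Ppt1 by -0.14 (adjusted p = 0.379), again without passing.

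Probe sets of the same gene did not always give the same size of difference. Of 45 tested genes, 28 had more than 1 tested probe set, and 34 of the 43 further probe sets had the sign of the chosen one. Of these 43 probe sets 5 were called, against 4.37% of all tested probe sets. For 2 genes a dimmer probe set was called where the chosen one was not. Npc2, the lumenal carrier that binds cholesterol, differed by -0.16 at its brightest probe set (adjusted p = 0.230) and by -0.92 at its dimmest tested one (adjusted p = 0.0281). That dimmest probe set read 8.39, 8.27 and 8.37 in Gata3-/- arrays, against 9.12, 9.33 and 9.36 in Gata3+/- arrays.

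Lamp2, a membrane glycoprotein whose transcripts are spliced at the end into alternative forms, was the other gene of this kind. Its brightest probe set read 13.45, 13.37 and 13.60 in Gata3-/- arrays, against 13.46, 13.35 and 13.61 in Gata3+/- arrays, which coincide (difference 0.00, 95% interval from -0.25 to 0.26). Its dimmest tested probe set read 12.10, 12.08 and 12.14 in Gata3-/- arrays, against 12.60, 12.78 and 12.83 in Gata3+/- arrays, a difference of -0.63 (SE 0.08, adjusted p = 0.0338). The other 2 differed by -0.12 and -0.32. The tables used here do not say which transcript form each probe set detects, and whether that bears on the disagreement was not tested.

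**Figure D3:**
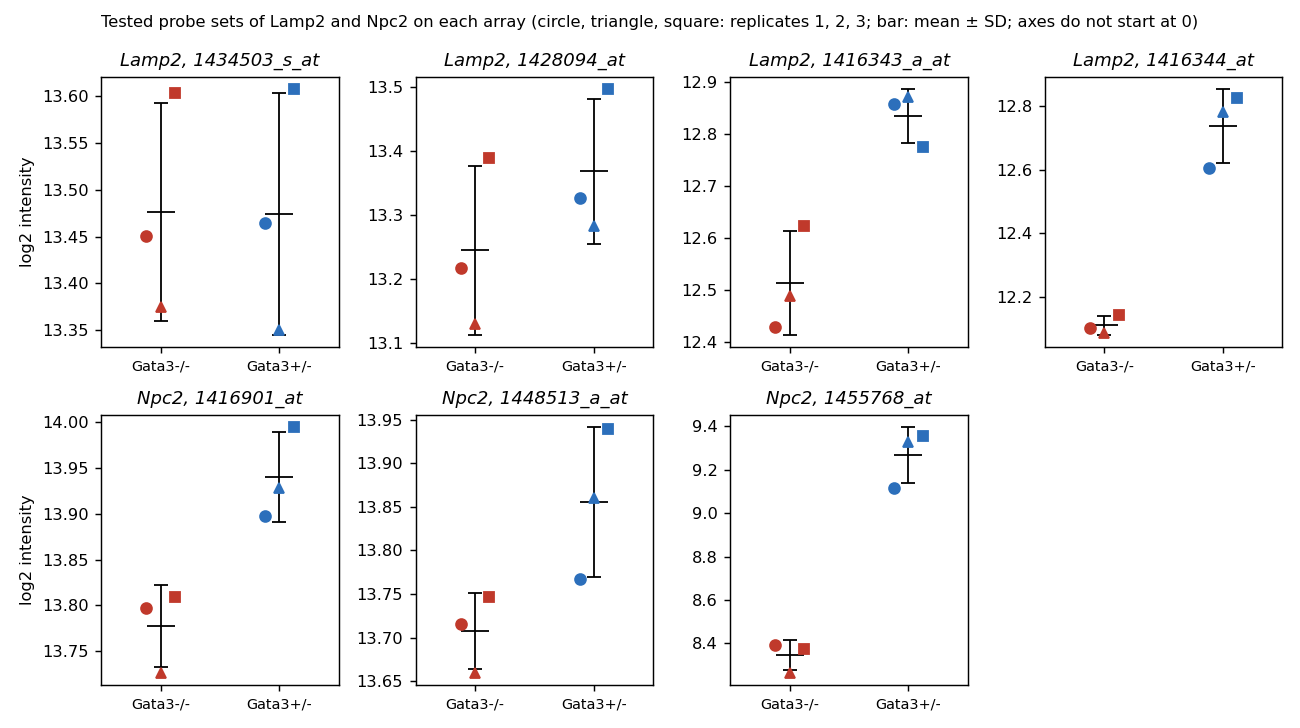
Log2 intensity of the 4 tested probe sets of Lamp2 (top) and 3 of Npc2 (bottom) on each array, Gata3-/- left and Gata3+/- right, with mean ± SD of 3 arrays. The genotypes coincide at the brightest Lamp2 probe set and separate by 0.63 at the dimmest tested one, and the Npc2 differences are -0.16, -0.15 and -0.92.

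Among the other membrane proteins, Lamp1, the most studied lysosomal glycoprotein and the promoter with 4 E-boxes above, had a difference of -0.16 (95% interval, -0.44 to 0.12). Laptm5, a transmembrane protein of blood cells and the brightest membrane probe set, stood at 15.20, 15.08 and 15.12 in Gata3-/- arrays, against 15.23, 15.31 and 15.23 in Gata3+/- arrays (difference -0.13, adjusted p = 0.358). Mcoln1, the calcium channel TRPML1, and Cln3 had differences of -0.06 and -0.16. Npc1, the membrane partner of Npc2 in cholesterol export, had a positive difference of 0.46 (adjusted p = 0.354).

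Cd68, the macrophage sialomucin, missed the threshold narrowly. It stood at 12.67, 12.69 and 12.82 in Gata3-/- arrays, against 12.17, 12.05 and 12.36 in Gata3+/- arrays, with no overlap (difference 0.53, SE 0.10, adjusted p = 0.0541). With the stricter filter, where fewer probe sets were tested, the adjusted p in limma was 0.0447. It was 0.0330 with robust eBayes and a variance trend and 0.0238 with array weights, and averaged probe sets also called Cd68. Without a filter it was 0.107, with the replicate block 0.0607, with quantile normalization 0.0502 and with median centring 0.0512. Cd68 was not called with any 1 array left out. Like Gm2a, Cd68 lies on chromosome 11.

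The proton pump subunits did not pass with limma, and 0 of 4 had an unadjusted p under 0.05. Atp6v1a, the catalytic subunit, stood at 11.49, 11.31 and 11.53 in Gata3-/- arrays, against 11.39, 11.31 and 11.48 in Gata3+/- arrays (difference 0.05, 95% interval from -0.18 to 0.28). Atp6v1b2, the regulatory subunit of the same ring, stood at 12.45, 12.40 and 12.87 in Gata3-/- arrays, against 12.46, 12.37 and 12.65 in Gata3+/- arrays (difference 0.08, 95% interval from -0.30 to 0.46). Both overlapped.

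The membrane subunit Atp6v0a1 stood at 9.72, 8.71 and 9.61 in Gata3-/- arrays, against 9.11, 8.40 and 9.23 in Gata3+/- arrays (difference 0.43, adjusted p = 0.520). Atp6v0d2, a subunit known from osteoclasts and macrophages, was near the floor and stood at 4.42, 3.32 and 6.83 in Gata3-/- arrays, against 4.44, 3.33 and 5.55 in Gata3+/- arrays, too variable for a direction (95% interval from -2.10 to 2.94). For both subunits replicate 2 was the lowest of each genotype. The median of the class was 0.25 with all arrays, -0.03 without Gata3-/- replicate 3 and 0.02 without Gata3+/- replicate 2.

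The MiT regulators did not differ beyond their spread, and 0 of 3 had an unadjusted p under 0.05 in limma. Tfeb, the main activator of lysosomal genes, had a difference of 0.01 (95% interval, -0.24 to 0.26). Tfec, the family member largely restricted to macrophages, stood at 11.49, 11.08 and 11.65 in Gata3-/- arrays, against 11.48, 11.25 and 11.65 in Gata3+/- arrays (difference -0.05, 95% interval from -0.50 to 0.40). Tfe3 stood at 9.58, 9.23 and 9.49 in Gata3-/- arrays, against 9.54, 9.60 and 9.89 in Gata3+/- arrays (difference -0.25, 95% interval from -0.59 to 0.10). Transcript levels do not report the nuclear localisation through which these proteins are regulated.

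The 13 tested genes with a promoter E-box had a median difference of -0.16 and 9 were negative, against a median of -0.13 and 18 negative of the 26 with a window but no E-box. The range with an E-box ran from -1.01 for Ctsf to 0.57 for Naglu. By limma 0 of the 13 and 3 of the 26 were called, against 5.27% of all genes, and 5 of the 13 and 9 of the 26 had an unadjusted p under 0.05, against 25.8% of all genes. Whether the groups differ was not tested.

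The lysosomal genes varied together between arrays of 1 genotype. Replicate 2 held the lowest of the 3 Gata3-/- values for 38 of 45 genes (84.4%), against 35.2% of all genes, and its mean deviation from the Gata3-/- mean over these genes was -0.23. Among Gata3+/- arrays replicate 2 held the lowest value for 28 of 45 genes (62.2%), against 38.1% of all genes, with a mean deviation of -0.12. Replicate 3 of Gata3+/- held the highest value for 34 of 45, a count made for the lysosomal genes only. Its median deviation from the Gata3+/- mean was 0.14 over these genes, against 0.02 over all genes. In Gata3-/- arrays the spread was wide for Ctsl and Lgmn (SD 0.54 and 0.45) and small for Gm2a and Glb1 (0.05 and 0.01). In Gata3+/- arrays the SDs of these genes, in the same order, were 0.31, 0.17, 0.18 and 0.02.

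**Figure D4:**
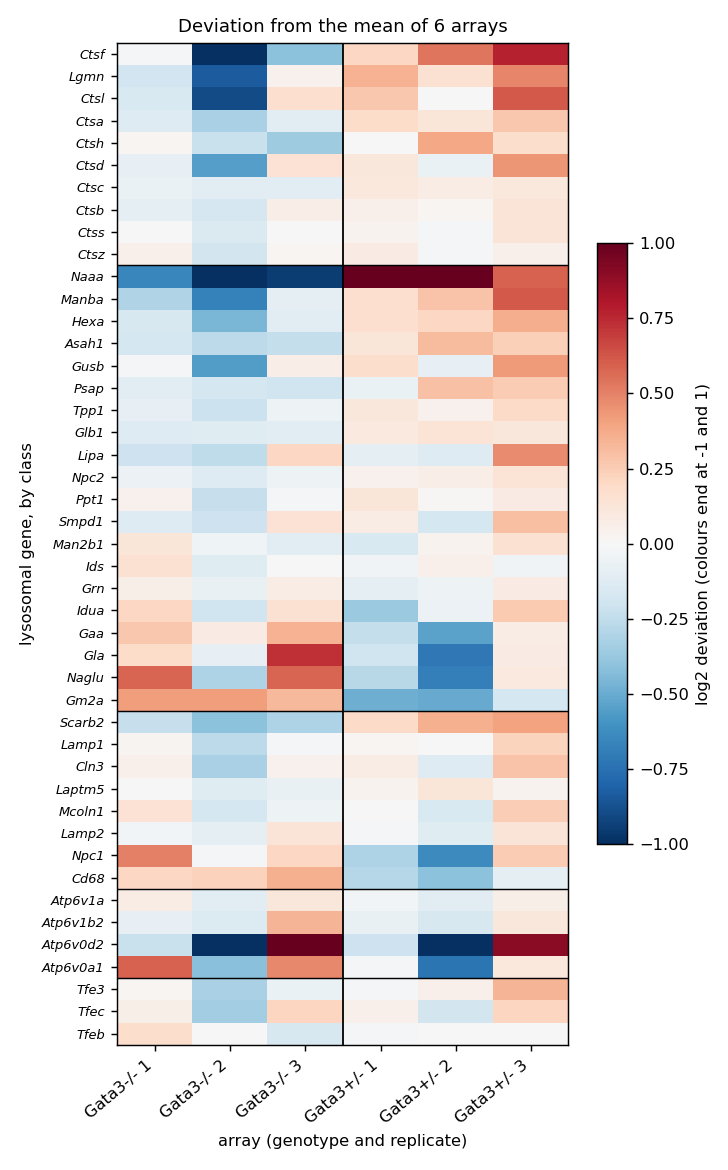
Deviation of each tested lysosomal gene (rows, by class) from its mean over the 6 arrays (columns, Gata3-/- left), in log2 units, with colours ending at -1 and 1. The column of Gata3-/- replicate 2 is the lowest of its genotype in 38 of 45 rows, and Gm2a, Gaa and Cd68 run opposite to Naaa and Scarb2.

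Marker lists of other cells were read on the same arrays. The intensity of 11 OP9 stroma markers, of which 9 were tested, summed to 12.62, 11.48 and 13.41 on the log2 scale in Gata3-/- arrays 1, 2 and 3, against 13.33, 11.72 and 13.50 in Gata3+/- arrays, lowest on replicate 2 of both genotypes; the stromal matrix genes Dcn and Lum never reached the minimum. The 14 macrophage and monocyte markers summed to 16.73, 16.54 and 16.69 in Gata3-/- arrays, against 17.06, 17.13 and 17.25 in Gata3+/- arrays, with no overlap. Of these 14, the Fc receptor Fcgr1, the chemokine receptor Ccr2 and the pore-forming Mpeg1 fell, and 11 did not pass. The lower calls made up 21.4% of the list, against 2.41% of all genes. Negative differences were seen in 13 (92.9%), against 53.3% of all genes. In bulk samples, fewer cells of a type and less RNA per cell cannot be told apart. The part of either marker list in the lysosomal values was not tested.

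Dendritic cell markers were mixed. Of 8 tested, Siglech and Irf8 fell and Zbtb46 rose (37.5% called, against 5.27% of all genes). The summed level of the 9 on the array was 15.59, 15.25 and 15.44 in Gata3-/- arrays, against 14.83, 14.53 and 14.87 in Gata3+/- arrays, again without overlap. The sum was higher through Ccr7, a chemokine receptor, which averaged 14.64 in Gata3-/- arrays, against 12.22 in Gata3+/- arrays (adjusted p = 0.108). Without Ccr7, a choice made after its values were seen, the other 8 summed to 14.29, 14.14 and 14.05 in Gata3-/- arrays, against 14.31, 14.43 and 14.43 in Gata3+/- arrays. Of 8 granulocyte markers the granule genes Camp, Elane, Ltf and Ngp were under the minimum on every array, and the list summed to between 9.01 and 11.18 in Gata3-/- arrays and between 9.72 and 10.53 in Gata3+/- arrays, which overlapped. The 12 T-lineage markers summed to between 6.84 and 7.43 in Gata3-/- arrays and between 6.42 and 6.68 in Gata3+/- arrays. The separation was seen in 1 gene, the surface receptor Cd5, which averaged 6.19 in Gata3-/- arrays, against 4.75 in Gata3+/- arrays (adjusted p = 0.0764). The other 11, all under the minimum, summed to between 6.02 and 6.08 in Gata3-/- arrays and between 5.98 and 6.06 in Gata3+/- arrays. The granulocyte sum was highest on replicate 2 of both genotypes, where the lysosomal genes were lowest. Their part in the lysosomal values was not tested.

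Lysosomal genes on chromosome 11 had the opposite sign to most of those elsewhere, although 9 genes elsewhere also had positive differences. All 6 tested genes on chromosome 11 (Gaa, Naglu, Gm2a, Grn, Cd68 and Atp6v0a1) had positive differences, between 0.04 and 0.78 with a median of 0.50. Of the 886 tested genes of that chromosome 88.3% were positive, with a median of 0.33, 10.6% called higher and 0.226% called lower. Of the 39 lysosomal genes elsewhere, 30 were negative (76.9%) and the median was -0.16, against a median of -0.04 and 42.8% positive over the 9392 genes of other chromosomes. In 14 of these 39 (35.9%) all Gata3-/- arrays lay below all Gata3+/- arrays, against 18.2% of genes elsewhere, and 3 (7.69%) were called lower, against 2.62%.

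**Figure D5:**
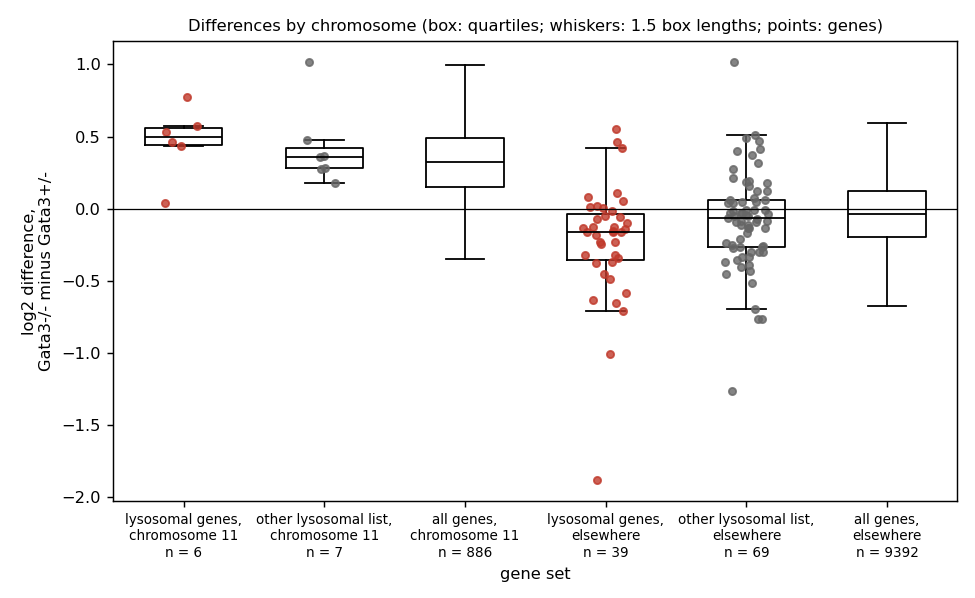
Log2 differences (Gata3-/- minus Gata3+/-) of the lysosomal genes, of a further lysosomal list and of all tested genes, on chromosome 11 (left 3) and elsewhere (right 3); boxes show quartiles, whiskers reach to 1.5 box lengths and points are single genes. The 6 lysosomal genes of chromosome 11 are all above 0, like most genes there, and the 39 elsewhere have a median of -0.16.

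The wider lysosomal pathway was read from a further list of 87 genes, of which 80 had a probe set of their own and 76 were tested. It showed 1 gene lower and 2 higher at the threshold (3.95%, against 5.27% of all genes), with 46 negative, 30 positive and a median of -0.04. Slc11a1 (NRAMP1), the metal transporter of phagosomes, fell, with 11.29, 11.31 and 11.26 in Gata3-/- arrays, against 11.94, 12.20 and 12.01 in Gata3+/- arrays (difference -0.77, adjusted p = 0.0289). Sgsh, the heparan sulfamidase, rose, with 7.74, 7.80 and 7.52 in Gata3-/- arrays, against 6.55, 6.56 and 6.91 in Gata3+/- arrays (difference 1.02, adjusted p = 0.0335). Ctso, a cysteine cathepsin outside the 11 above, rose by 0.40 (adjusted p = 0.0477). Ctse, another cathepsin of the further list, had a positive difference of 0.51 that did not pass (adjusted p = 0.293). Ctsw was too dim to test. The negative sign of the listed cathepsins at their chosen probe sets was thus not shared by Ctso or Ctse. Sgsh is 1 of 7 genes of the further list on chromosome 11, of which 7 had positive differences.

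By role, the further hydrolases had 14 negative of 19 with a median of -0.14. The further proteases and protease inhibitors had 2 negative of 8 with a median of 0.28. The further pump subunits had 9 negative of 13 with a median of -0.05, against 0 negative of the 4 listed subunits. Without Gata3-/- replicate 3, 2 of those 4 were negative, so no direction is given for the listed class. Tcirg1, the pump's a3 subunit, had the smallest p there (difference -0.41, adjusted p = 0.0690). None of 13 pump subunits, 12 sorting genes and 11 regulators and nutrient sensors was called by limma, with 4, 3 and 4 at an unadjusted p under 0.05. Over all genes 5.27% were called and 25.8% had an unadjusted p under 0.05, so these counts lie near the background. Gnptab, which builds the mannose 6-phosphate tag, had a difference of -0.37 (adjusted p = 0.135) and Lamtor1, the anchor of the Ragulator complex, of -0.21 (adjusted p = 0.140).

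With any 1 array left out, 0 of the 45 lysosomal genes and 0 to 4 of all 10302 genes were called by limma. In those fits 11 to 14 of the 45 had an unadjusted p under 0.05 (24.4% to 31.1%), against 19.8% to 24.1% of all genes. The difference of Naaa then lay between -2.06 and -1.74 and that of Gm2a between 0.72 and 0.88. When genes of chromosomes 6, 11, 14 and Y were left out, the calls were Naaa and Scarb2, and Asah1 had an adjusted p of 0.0537.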

How the data were processed

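The authors deposited a linear intensity for each of 45101 probe sets on 6 Affymetrix arrays, made with GC-RMA per the labels (background correction by probe sequence and normalization between arrays), and GCOS appears among tools in the submitters' processing notes. No version, setting or genome build was found in the labels. Array medians lay between 8.55 and 8.90 after the 64 control probe sets were left out.

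Intensities were taken to log2 without further normalization. A probe set was tested when it reached a log2 value of 4 (intensity 16) on at least 3 arrays, which left 20102. Low values form a floor, so dim differences are understated. Names came from the platform annotation. Differences were fitted with limma 3.58.1 in R 4.3.3 (lmFit, eBayes, two-sided) and adjusted by Benjamini-Hochberg over all tested probe sets at 0.05. The procedure was tested on simulated data. Plots used matplotlib 3.10.9.

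Per-array values were given for called genes and, per class, for the 2 brightest probe sets and the 2 largest differences; per-array values of other genes were added with the values in view. The members and lists were chosen with earlier results of these data known. Alternatives were no filter, a filter at 6, quantile normalization, median centring, variance trend with robust eBayes, array weights, a replicate block, averaged probe sets, omitted arrays and omitted chromosomes.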

Additional observations from a re-analysis of the deposited data

How the results depend on the processing

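Of the 45 lysosomal genes 4 were called (3 lower, 1 higher), of the further lysosomal list 3, and of all probe sets 878. In the same order, counts were 2 (2 and 0), 0 and 166 without a filter, 7 (5 and 2), 7 and 1349 with robust eBayes and a trend in the variance, 6 (4 and 2), 8 and 2075 with array weights, and 2 (2 and 0), 1 and 391 without chromosomes 6, 11, 14 and Y. They were 0 (0 and 0), 0 and 4 without both arrays numbered 2. Averaging probe sets gave 6 (4 and 2) and 8, and the stricter filter 5 (3 and 2). Among all genes, 543 of 10302 were called in the main fit, 98 of 18193 without a filter and 824 of 10302 with robust eBayes. They were 1224 of 10302 with array weights, 229 of 8554 with chromosomes omitted and 3 of 10302 without both arrays numbered 2. Averaged probe sets gave 731 of 10302 and the stricter filter 682 of 9291. Lysosomal genes tested were 46 without a filter, 44 with the stricter filter and 37 with chromosomes omitted. Quantile normalization and median centring called the same 4 genes. Without a filter Ctsc and Glb1 were called and none of the 4. The cause of these changes was not tested. Leaving out each array in turn gave 0 to 0 members in either direction, 0 to 0 of the further list and 0 to 9 probe sets, with the median difference of members between -0.18 and -0.06, against -0.13. Those fits hold fewer arrays. Naaa, Asah1, Scarb2 and Gm2a kept their sign in each alternative that tested them. Their genotypes did not overlap, so leaving out or weighting arrays could not have changed that sign. Ctsc, called without a filter at -0.19, differed by 0.01 when probe sets were averaged.

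With the replicate block 1 lysosomal gene (1 lower, 0 higher), 1 of the further list and 498 probe sets were called. Of all 10302 genes 298 were called in that fit. Same-numbered arrays had deviations from their genotype means that correlated at 0.005 for number 1, 0.695 for number 2 and 0.429 for number 3, and Gata3+/- array 1 correlated better with Gata3-/- array 3 (0.424), so no pairing is assumed.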
